A study of Mus musculus with 8 samples.

Results

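The genes described here encode the pore-forming and auxiliary subunits of voltage-gated sodium and calcium channels and of potassium channels. They were chosen by symbol alone, as every gene on the array whose name begins with Kcn, Cacna, Cacnb or Cacng, or with Scn followed by a digit. The array held 135 such genes, measured by 207 probes, and 152 of these probes, for 112 genes, were among the 21902 probes that passed the filter. A probe passed when its signal was well above background on all 8 arrays, it was named by a GenBank or RefSeq accession and no array gave it an outlier flag.

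RNA came from the olfactory bulb of male C57BL/6J mice, 56 days old, and was labelled with a single dye for Agilent mouse arrays. C-C mice were reared in a standard cage and breathed clean air, and C-DE mice had the same cage and inhaled diesel exhaust. EE-C and EE-DE mice were reared from before birth in a larger cage with a running wheel, a small house, wood blocks and tubing, in clean air and diesel exhaust respectively. Exposed mice inhaled exhaust at 90 µg/m3 for 8 hours a day over 28 days that began on postnatal day 28 and ended on day 55. The methods state that RNA was combined within each group, from 7 mice each for C-C and C-DE, from 8 for EE-C and from 9 for EE-DE. Each such pool was hybridized to 2 arrays, so that the arrays show technical error and not the spread between mice. No p-value was therefore computed. Levels are log2 signals minus the array's 75th percentile, a value of 0 being the signal that 75% of noncontrol spots do not exceed. Fold changes are differences between the means of 2 arrays on the log2 scale, followed by their range over the 4 possible pairs of single arrays, and a probe was called at 1.5-fold, which is 0.585 on this scale.

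All 8 arrays lay on 1 slide, with the pools of each rearing condition in a column of their own, so rearing and slide column cannot be told apart. The first EE-DE array had 56.7% of its spots well above background, and the others had 68.0% to 70.6%. Of the 55 channel probes that did not pass, 18 failed on a single array, and for all 18 this was the first EE-DE array. The first EE-C array read lower than the second in a slide corner, where blocks of spots had a median log2 difference under -0.3. Of the passing channel probes, 1 lay there. Duplicates were 1.5-fold or more apart for 2.14% of all probes in EE-C, against 0.73% to 1.24% in the other pools. The 12 marker genes of olfactory bulb neurons, among them Eomes and Tbx21 of mitral and tufted cells and Th of dopaminergic cells, all passed and differed by between -0.15 and 0.13 on the log2 scale in the 5 comparisons. Markers of the olfactory mucosa were also detected. Their values stand beside the channel genes that moved with them.

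An action potential begins when voltage-gated sodium channels open and ends as they inactivate and potassium channels repolarize the membrane. Calcium channels turn the depolarization into transmitter release and gene regulation, and inward rectifier and leak potassium channels hold the resting potential. In the bulb, axons of olfactory sensory neurons excite mitral and tufted cells, whose firing is shaped by A-type and calcium-activated potassium currents and by inhibitory granule and periglomerular cells.

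Most channel families were represented in the bulb. Probes passed for 34 of 40 genes of Kv alpha subunits, which form voltage-gated potassium pores, for 12 of 15 genes of inward rectifiers (Kir) and for 12 of 14 genes of the K2P leak channels. They passed for 8 of 10 sodium channel alpha subunits, for 8 of 10 calcium channel alpha-1 subunits and for all 4 sodium channel beta, all 4 calcium channel alpha-2/delta and all 4 calcium channel beta subunits. The remaining families passed with 10 of 13 Kv auxiliary subunits, 8 of 12 calcium- and sodium-activated channels and their beta subunits and 7 of 8 gamma subunits, a group that includes the TARP proteins of AMPA receptors. The last gene, Kcnq1ot1, is an RNA transcribed antisense to Kcnq1 and codes for no subunit.

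**Figure D1:**
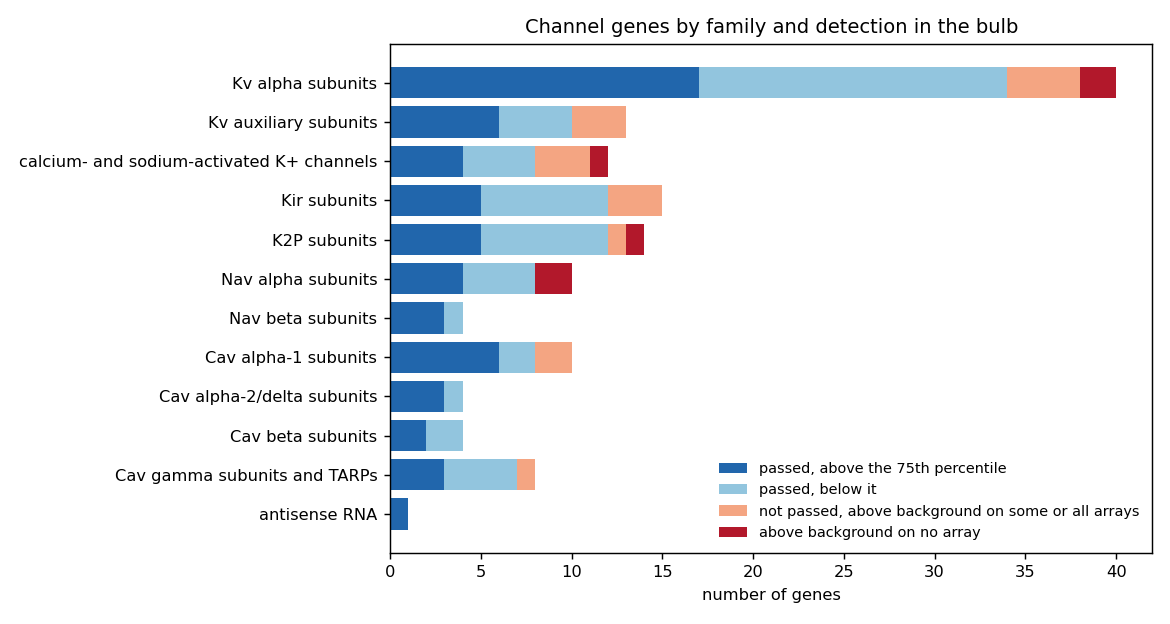
Number of channel genes in each family (horizontal axis) by detection in the olfactory bulb. Dark and light blue are genes with a passing probe, whose signal lay above or below the 75th percentile of the array, orange are genes above background on some or all arrays without a passing probe, and red are the 6 genes above background on no array. Of the 112 genes with a passing probe, 59 lay above the 75th percentile and 53 below it.

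Of the other 23 genes, 6 were well above background on no array. These were Scn7a and Scn9a, sodium channels of glia and of peripheral sensory neurons, Kcnk18, Kcng3, Kcnv2 and Kcnn1, a small-conductance calcium-activated channel. Another 15 genes were above background on some arrays, among them Cacng1, the gamma subunit of skeletal muscle, on 7 arrays and Kcne1, a partner of Kcnq1 in heart and ear, on 1 array. Cacna1b, the N-type calcium channel of presynaptic terminals, reached 7 of 8 arrays with its 1 probe. The remaining 2 genes, among them Cacna1f, were above background on all 8 arrays through probes without a GenBank or RefSeq accession and were left out by that criterion.

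Channel probes varied over the 8 arrays about as much as all probes did. For the 152 passing probes, the highest array lay above the lowest by a median of 0.257 on the log2 scale, against 0.242 for all 21902 probes. The span reached 1.5-fold for 13 channel probes (8.55%), against 8.99% of all probes. None of the 68 channel probes above the 75th percentile spanned 1.5-fold, whereas 11 of the 47 probes with a level under -2 did. All probes were not split by level, so these counts have no share to stand beside. Shown by the probe of highest signal per gene, 103 of 112 genes spanned less than 1.5-fold over all 4 groups. The others included Cacna1e, Kcnk16, Kcnj2, Kcnj5, Kcns3, Kcne4, Scn11a and Scn4b, all with levels below the 75th percentile.

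**Figure D2:**
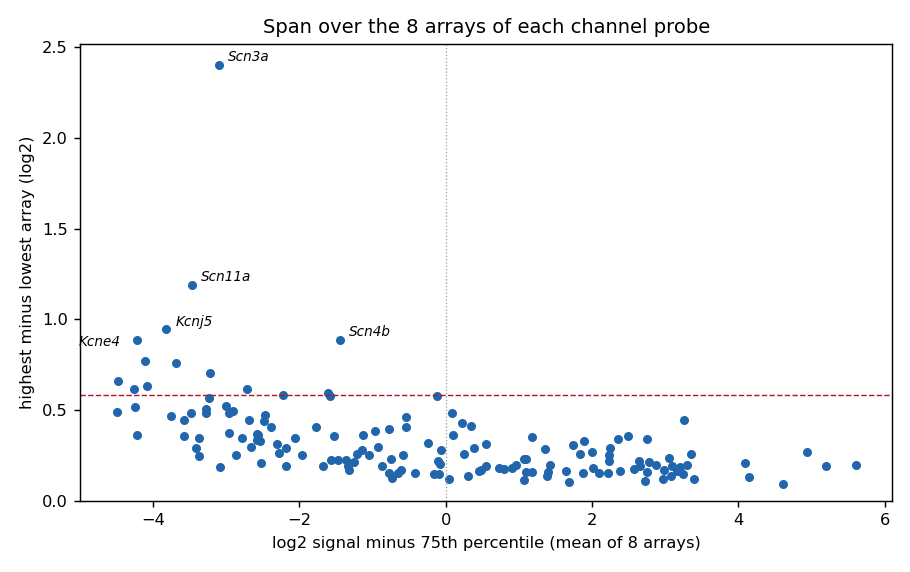
Span of each of the 152 passing channel probes over the 8 arrays (vertical axis, highest minus lowest log2 signal) against its mean level (horizontal axis, log2 signal minus the 75th percentile). The dashed line is 1.5-fold, the dotted line the 75th percentile, and the 5 probes of widest span are named. No probe to the right of the dotted line reached 1.5-fold.

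In the comparison of exposure in standard cages (C-DE/C-C), 2 of 152 channel probes (1.32%) passed 1.5-fold, against 0.571% of all probes, and both were lower. These were a probe of Scn3a, whose value rested on a single C-C array, and the probe of Kcnj5. The probe of Kcnj5 was lower by 1.5-fold in all 4 pairings of arrays, a criterion met by 0.105% of all probes. In the other comparisons no channel probe met it, against 0.0822% of all probes in EE-DE/EE-C, 0.0457% in EE-C/C-C, 0.178% in EE-DE/C-DE and 0.114% in EE-DE/C-C. The same exposure in enriched cages (EE-DE/EE-C) took none of the 152 channel probes past 1.5-fold, against 0.963% of all probes. Rearing in clean air (EE-C/C-C) gave 1 channel probe, against 0.836% of all probes, and rearing under exposure (EE-DE/C-DE) gave 1, against 0.639%. Exposed enriched mice against unexposed standard mice (EE-DE/C-C) gave 1, against 0.813%. These comparisons share pools, so that a deviation of 1 pool enters several of them. The counts were small enough for 1 array to decide them: C-DE/C-C gave 1 probe without the first and 4 without the second C-C array, and EE-DE/EE-C gave 2, for Kcnj5 and Scn4b, without the first EE-C array and 1 without the second EE-C or the first EE-DE array. Rearing in clean air gave 3 without the first EE-C array, EE-DE/C-DE gave 2 without the first C-DE or the first EE-DE array, and EE-DE/C-C gave 2 without the second C-C and 3 without the second EE-DE array. The shares of all probes without these arrays are not given here.

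**Figure D3:**
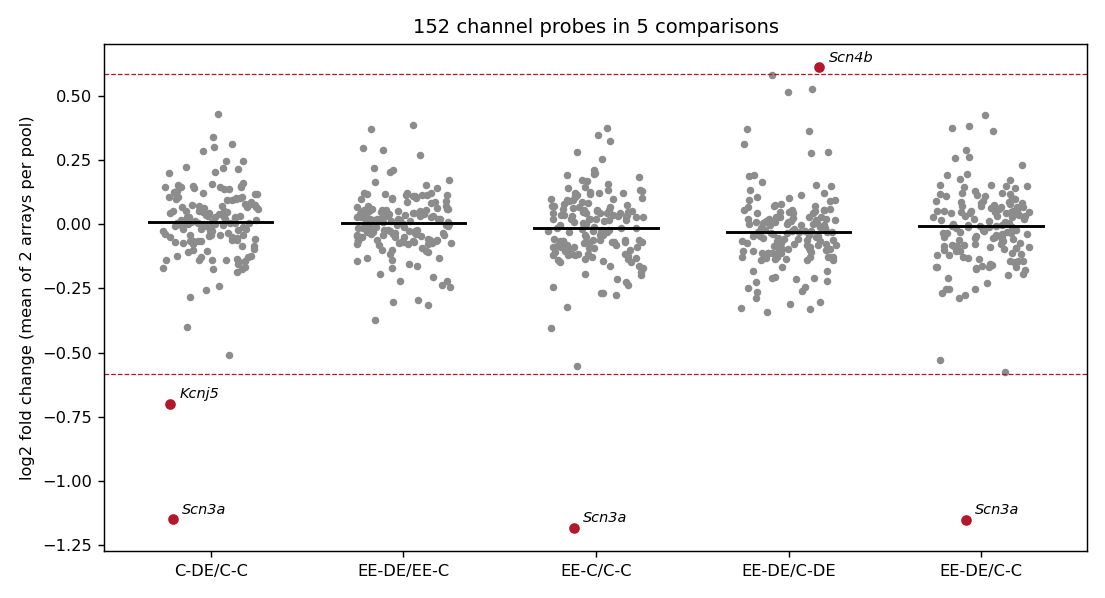
Log2 fold change (vertical axis, mean of 2 arrays against mean of 2 arrays) of the 152 passing channel probes in 5 comparisons of pools. Dashed lines mark 1.5-fold, black bars the median of the channel probes, and red points the probes past 1.5-fold, which were Kcnj5, Scn4b and, in 3 comparisons, the same probe of Scn3a.

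The probes of the genes that these results turn on are given by the first 30 of their 60 bases, 5′ to 3′, with the position of the whole probe on mouse genome mm9 as given in the array files. They are printed because the calls rest on single probes and because probes of the same gene gave different values. Kcnj5 was read at chr9:32122418-32122477 (minus strand) and Scn4b at chr9:44962045-44962104 (plus strand). The Scn3a probe past 1.5-fold lay at chr2:65295675-65295734, and the other passing probes of the gene lay at chr2:65296320-65296379, chr2:65297940-65297999 and chr2:65346334-65346393, all on the minus strand. The Scn8a probes lay on the plus strand at chr15:100766904-100766963, chr15:100848863-100848922 and chr15:100875702-100875761.
Kcnj5: ttagtaagataacagacccaatcaggtttc
Scn4b: ttcctatctaactttataggcaatacagtg
Scn3a, start 65295675: gagaaagaacacctctgaaagatacctttc
Scn3a, start 65296320: gtaacaccctgctacactatctactgagaa
Scn3a, start 65297940: tccactttctggatggtgttagcttacaag
Scn3a, start 65346334: tactggacagcttccgccagaggtgataat
Scn8a, start 100766904: acagcaagcccaagccaaacagtgacctgg
Scn8a, start 100848863: ttcatcctggagatgttgctcaaatggaca
Scn8a, start 100875702: gcaggtgtgcacatgtatgtgtgtgtgtgt

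Kcnj5 encodes a subunit of the G protein-gated inward rectifier through which transmitters such as acetylcholine slow firing. Its levels were -3.46 and -3.57 on the C-C arrays, -4.15 and -4.27 on the C-DE arrays, -3.47 and -4.37 on the EE-C arrays and -3.84 and -3.42 on the EE-DE arrays. Both C-DE arrays lay below both C-C arrays, and the EE-C duplicates spanned nearly the whole range of the gene. In C-DE/C-C the difference was -0.70 (-0.81 to -0.59). In EE-DE/EE-C it was 0.29 (-0.37 to 0.95), which overlaps 0, and in EE-DE/C-DE it was 0.58 (0.31 to 0.85), just short of 1.5-fold, with both EE-DE arrays above both C-DE arrays. With a background correction that adds 50 to each signal (normexp), the C-DE/C-C difference was -0.25 and the call was lost. In a bulk sample of tissue, fewer cells of a type and less RNA per cell cannot be told apart, here and in the results that follow.

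Scn4b encodes a beta subunit that speeds the recovery of sodium channels and supports resurgent current. Its levels were -1.05 and -1.51 in C-C, -1.84 and -1.74 in C-DE, -1.31 and -1.77 in EE-C and -1.40 and -0.95 in EE-DE. Both C-DE arrays lay below the other 6 arrays except for the second EE-C array, which lay between them. In EE-DE/C-DE the difference was 0.61 (0.34 to 0.89) and passed 1.5-fold, in C-DE/C-C it was -0.51 (-0.79 to -0.23), and in EE-DE/EE-C it was 0.37 (-0.09 to 0.83). With the normexp correction the EE-DE/C-DE difference was 0.47, below 1.5-fold, and it was 0.38 without the second and 0.84 without the first EE-DE array, and 0.56 without the first C-DE array.

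Markers of the olfactory mucosa's supporting cells and glands, a tissue of the nasal cavity, also differed between the pools. Of 11 such markers, 10 were on the array and passed. Their summed level was 3.77 and 2.97 on the C-C arrays, 2.05 and 2.38 on the C-DE arrays, 3.68 and 2.28 on the EE-C arrays and 3.48 and 4.17 on the EE-DE arrays. The second EE-C array was thus the lower of its pair for the marker sum, for Kcnj5 and for Scn4b, although both arrays held the same RNA. In C-DE/C-C the markers had a median of -1.23 and 9 of 10 were lower by 1.5-fold, in EE-DE/C-DE their median was 1.65 with 9 higher by 1.5-fold, and in EE-DE/EE-C it was 0.72 with 7 higher by 1.5-fold. In EE-DE/C-C all 10 were higher, 2 of them by 1.5-fold, with a median of 0.37, while Kcnj5 differed by -0.12 (-0.38 to 0.14) and Scn4b by 0.10 (-0.36 to 0.56). In EE-C/C-C their median was -0.32 with 3 lower by 1.5-fold. Markers of olfactory sensory neurons, of which 9 passed, differed in C-DE/C-C by -0.20 in the median, 3 of them lower by 1.5-fold. Their median in EE-DE/C-DE was 0.35, with 8 of 9 higher and 3 higher by 1.5-fold, and in EE-DE/EE-C it was 0.11, with 2 higher by 1.5-fold. Their summed level lay between 6.77 and 7.07 on all arrays. Omp and Gng13 weigh most in that sum, with mean levels of 6.03 and 5.63. The part of either list in the Kcnj5 and Scn4b results was not tested.

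**Figure D4:**
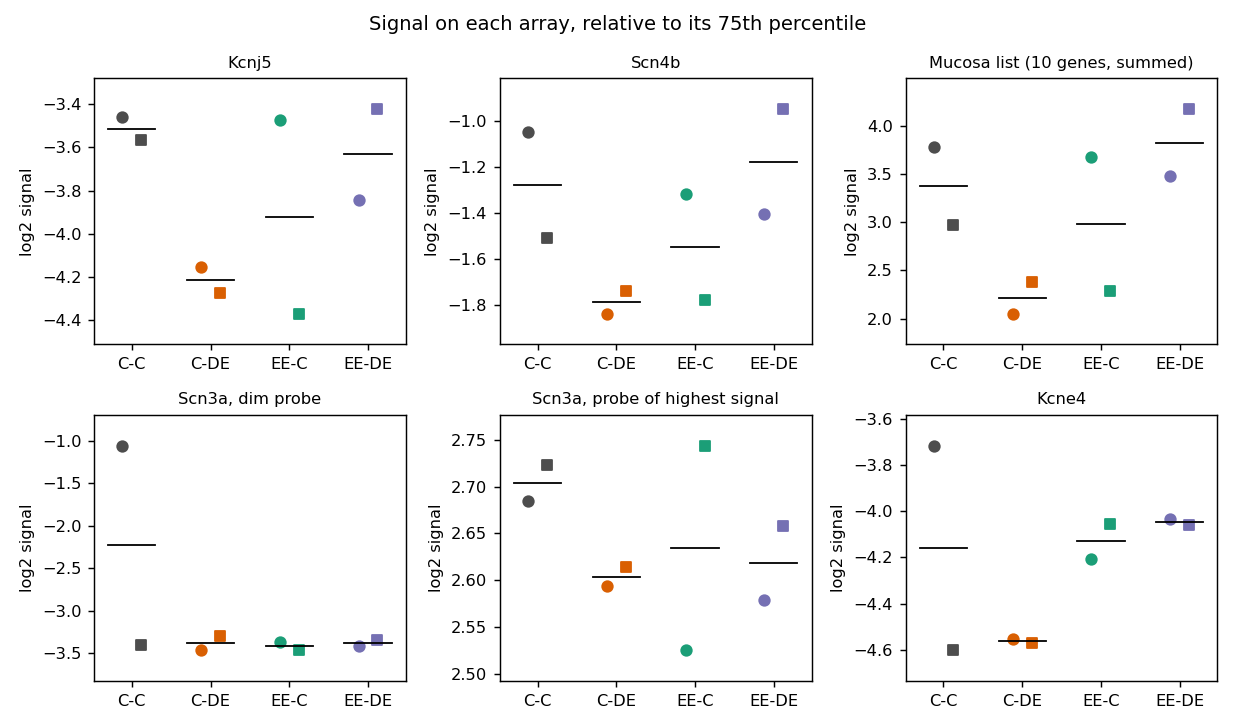
Level on each array (vertical axis, log2 signal minus the 75th percentile) of 5 channel probes and of 10 mucosa markers summed, by group (horizontal axis). Circles are the first and squares the second array of a pool and bars are their means; vertical scales differ between panels. Kcnj5, Scn4b and the marker sum are low on both C-DE arrays and the second EE-C array, and the dim Scn3a probe is high on the first C-C array alone.

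Among sodium channel alpha subunits, the channels of central neurons spanned less than 1.5-fold by their probes of highest signal, whereas a dim probe of Scn8a spanned 0.76 and one of Scn3a 2.40 on the log2 scale. Scn2a1 (now Scn2a), a channel of unmyelinated axons and axon initial segments, lay between 3.03 and 3.16 on the 8 arrays. Scn1a, a main channel of fast-spiking interneurons, lay between 2.37 and 2.73. By their probes of highest signal, Scn3a, known from developing brain, lay between 2.52 and 2.74, and Scn8a, the channel of nodes of Ranvier, between 1.25 and 1.54. The largest difference of these probes of the 4 genes over the 5 comparisons was -0.13 on the log2 scale, for Scn1a in EE-DE/EE-C.

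The Scn3a probe past 1.5-fold gave another picture. It read -1.06 and -3.40 on the C-C arrays, and -3.46, -3.29, -3.36, -3.46, -3.42 and -3.34 on the arrays of C-DE, EE-C and EE-DE in turn. The first C-C array alone was high. The differences were -1.15 in C-DE/C-C, -1.18 in EE-C/C-C and -1.15 in EE-DE/C-C, and without that array the first became 0.02. The 3 other passing probes of the gene differed by -0.10, -0.04 and 0.00 in C-DE/C-C.

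Scn8a probes also parted. The probe at start 100848863 read -3.28 and -3.59 in C-C, -3.75 and -3.49 in C-DE, -3.84 and -3.66 in EE-C and -4.03 and -3.88 in EE-DE, a difference of -0.53 (-0.76 to -0.30) in EE-DE/C-C. Both EE-DE arrays lay below all other arrays. The probe of highest signal, whose printed bases end in a run of alternating t and g, differed by -0.01 in the same comparison, and the probe at start 100766904 by -0.05.

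Sodium channels known mainly from other tissues had dim probes with wider spans. Scn4a, the channel of skeletal muscle, differed by 0.43 in EE-DE/C-C, with levels between -3.28 and -2.76. Of 9 skeletal muscle markers 3 passed, and Ckm, Myh1, Myh2, Myh4, Tnnt3 and Actn3 did not. In EE-DE/C-C the passing markers differed by 0.30 (Tnni2), 0.13 (Acta1) and -0.05 (Pvalb), with Tnni2 at 0.50 in EE-DE/C-DE, where Scn4a differed by 0.28. The summed level of the 3 lay between 1.17 and 1.39 on all arrays. Pvalb weighs most in that sum, with a mean level of 0.76 against -0.83 for Acta1 and -2.28 for Tnni2. The part of these markers in the Scn4a value was not tested. Scn10a and Scn11a, channels of peripheral sensory neurons, had levels between -3.78 and -3.34 and between -4.22 and -3.03. The EE-DE duplicates of Scn11a were more than 1.5-fold apart, at -4.22 and -3.18, and its difference in EE-DE/C-C was -0.57 (-1.19 to 0.04). In EE-C/C-C it was -0.55 (-0.70 to -0.40), short of 1.5-fold, with both EE-C arrays below both C-C arrays.

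Of the other beta subunits, which anchor and modulate the sodium pore, Scn2b lay between 3.34 and 3.46 and Scn3b between 3.08 and 3.52. The largest difference of Scn3b was -0.27, in EE-C/C-C, where Scn4b also differed by -0.27.

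Of the 12 inward rectifier genes that passed, all but Kcnj5 and Kcnj2 spanned less than 1.5-fold over the 8 arrays by their probes of highest signal. Kcnj10, the Kir4.1 channel through which astrocytes take up potassium, lay between 5.08 and 5.27 on all arrays, and Kcnj16, its partner subunit, between 2.31 and 2.47. Kcnj4, a strong rectifier of forebrain neurons, lay between 5.52 and 5.72. Kcnj3, Kcnj6 and Kcnj9, the other G protein-gated subunits, differed in C-DE/C-C by 0.00, -0.14 and 0.07. Kcnj8 and Kcnj11, the pores of ATP-sensitive channels, differed there by -0.17 and 0.15. Kcnj2, a strong rectifier also found in vessels and muscle, read -4.08 and -4.21 in C-C, -4.19 and -4.40 in C-DE, -4.15 and -4.16 in EE-C and -3.77 and -3.76 in EE-DE. Both EE-DE arrays were the highest, and the difference of 0.53 in EE-DE/C-DE did not reach 1.5-fold.

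K2P channels, which carry leak current, had no probe past 1.5-fold. Kcnk1 lay between 1.80 and 1.95, Kcnk3, an acid-sensitive channel, between 0.81 and 0.99, and Kcnk10, a channel opened by stretch and fatty acids, between 1.12 and 1.28. Kcnk2, of the same kind, lay between -2.31 and -2.02, Kcnk9, also acid-sensitive, between -3.49 and -3.24, and Kcnk13, known from microglia, between 0.43 and 0.62. The largest differences of the family were 0.35 for Kcnk5 in EE-C/C-C and 0.34 for Kcnk16 in C-DE/C-C, and both probes were dim, at -4.66 to -4.17 for Kcnk5 and -4.49 to -3.72 for Kcnk16.

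The Kv alpha subunits were the largest family, and none of their 48 passing probes passed 1.5-fold in any comparison. Kcnd2 and Kcnd3, which carry A-type current in dendrites, lay between 4.01 and 4.22 and between 4.08 and 4.21. Kcna1 and Kcna2, delayed rectifiers of axons, lay between 2.92 and 3.04 and between 0.94 and 1.17. Kcna4, an A-type channel of axons, lay between 1.67 and 2.00 and Kcna5 between -0.79 and -0.67. Kcnb2, a delayed rectifier, lay between 0.22 and 0.51. Kcnc1, a fast channel of rapidly firing cells, lay between 2.65 and 2.86, with Kcnc2 and Kcnc4 of the same subfamily between 1.33 and 1.46 and between -0.23 and 0.05. Kcna3, which is prominent in mitral cells, lay between -2.26 and -2.07. Kcnq3, a subunit of channels of the M-current, which transmitters suppress, differed in C-DE/C-C by -0.02. Among ether-a-go-go channels, Kcnh2 and Kcnh7 of the erg group lay between 0.40 and 0.57 and between -3.04 and -2.79, and Kcnh3 lay between 4.82 and 5.09.

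The widest difference among Kv alpha genes by their probes of highest signal was that of Kcns3, a silent subunit that modifies other Kv channels. Its mean was -2.84 in C-C, and it read -2.70 and -2.95 in C-DE, -2.51 and -2.98 in EE-C and -2.52 and -2.39 in EE-DE. The second array was the lower in all pools but EE-DE, and the difference in EE-DE/C-C was 0.38 (0.15 to 0.62), with both EE-DE arrays above both C-C arrays. The duplicates were 0.33 apart in C-C and 0.47 in EE-C. Kcng1, another silent subunit, differed by 0.36 in EE-DE/C-DE.

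Auxiliary subunits of Kv channels include the KChIP proteins, which bring A-type channels to the membrane. Kcnip3 had the narrowest span of the group, between 4.57 and 4.66, and Kcnip1, Kcnip2 and Kcnip4 lay between 1.00 and 1.16, 0.87 and 1.07, and 2.01 and 2.17. Kcnab1, Kcnab2 and Kcnab3, the cytoplasmic beta subunits, differed in C-DE/C-C by 0.01, 0.06 and 0.22. Kcne4, a small membrane partner that inhibits several channels, read -3.72 and -4.60 in C-C, -4.55 and -4.57 in C-DE, -4.21 and -4.05 in EE-C and -4.03 and -4.06 in EE-DE. Its C-C duplicates were more than 1.5-fold apart. The C-DE arrays lay below all EE-C and EE-DE arrays, and the differences were 0.51 for EE-DE/C-DE and -0.40 for C-DE/C-C.

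Calcium-activated potassium channels, which follow a spike with hyperpolarization, differed by between -0.22 and 0.17 in the 5 comparisons over the 11 probes that passed, sodium-activated channels included. Kcnma1, the large-conductance channel, lay between 2.67 and 2.83 and its neuronal beta subunit Kcnmb4 between 3.23 and 3.49. Kcnn2, a small-conductance channel, lay between 1.94 and 2.12, and Kcnn3 between -2.42 and -2.11. Kcnt1, a sodium-activated channel, lay between 1.32 and 1.51. The lowest value of the family was that of Kcnn4, a channel of blood cells and epithelia, in EE-DE/C-DE.

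Calcium channel alpha-1 subunits, the pores of these channels, also had no passing probe past 1.5-fold in any of the 5 comparisons. By its probe of highest signal, Cacna1a, the P/Q-type channel of nerve terminals, lay between 1.55 and 1.71. By theirs, the T-type channels Cacna1g, Cacna1h and Cacna1i lay between 1.91 and 2.18, 2.16 and 2.50, and 3.20 and 3.40. A second passing probe was far dimmer for Cacna1h and for Cacna1i, with mean levels of -3.23 and -2.39. The L-type channels Cacna1d and Cacna1c lay between 0.38 and 0.54 and between -3.57 and -3.06. Cacna1s, known from skeletal muscle, lay between 0.64 and 0.82 in this tissue by its brighter probe, while its other passing probe had a mean level of -2.58. Cacna1e, the R-type channel, had a dim probe with EE-C duplicates at -4.89 and -4.30, more than 1.5-fold apart.

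Cacna2d1, the gabapentin-binding accessory subunit of calcium channels, lay between 3.15 and 3.30, Cacna2d2 between 1.69 and 1.95 by its brighter probe, Cacna2d3 between 0.98 and 1.21, Cacnb3 between 3.07 and 3.23 and Cacnb4 between 2.56 and 2.75. A dim second probe of Cacna2d2 spanned 0.71 and read -2.75 and -3.46 on the EE-C arrays, more than 1.5-fold apart. Cacnb2 read -1.29 and -1.43 in C-C, -1.64 and -1.64 in C-DE, -1.62 and -1.59 in EE-C and -1.48 and -1.53 in EE-DE. The C-C arrays were the highest, with a difference of -0.28 in C-DE/C-C, while a second probe of the gene differed by 0.04. Among the TARPs, which carry AMPA receptors to synapses, Cacng2 (stargazin) lay between 2.12 and 2.35 and Cacng8 between -2.76 and -2.39, while Cacng3, Cacng4 and Cacng5 lay between -0.02 and 0.11, -1.25 and -0.97, and 2.93 and 3.17. Cacng7 differed by -0.37 in EE-DE/EE-C, at -1.56 and -1.25 on the EE-C arrays and -1.83 and -1.73 on the EE-DE arrays, so that both exposed arrays were lower.

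The antisense RNA Kcnq1ot1, which silences genes near Kcnq1 on the paternal chromosome, had levels between -0.23 and 0.26 by its probe of highest signal. Both of its probes differed by less than 1.5-fold in all comparisons, and by -0.21 and -0.15 in EE-C/C-C.

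Over all channel probes, the median size of the difference was 0.08 in EE-DE/C-DE (0.06 over all probes), 0.09 in EE-C/C-C (0.07), 0.09 in EE-DE/C-C (0.07) and 0.07 in C-DE/C-C (0.06), larger than over all probes in these 4 comparisons. For EE-DE/EE-C both values were 0.06. In C-DE/C-C the signed median of the 152 probes was 0.01, against -0.01 for all probes, and 145 probes (95.4%) differed by less than 0.3 in size, against 96.6% of all probes. In EE-DE/C-DE the median was -0.03, against 0.00 for all probes, 92 channel probes were lower and 60 higher, and 140 channel probes (92.1%) differed by less than 0.3, against 96.6%. There, both EE-DE arrays lay below both C-DE arrays for 53 channel probes (34.9%), against 21% of all probes, and above them for 28 (18.4%), against 21.2%. In EE-DE/C-C both arrays were below for 49 (32.2%), against 24.8% of all probes, and above for 30 (19.7%), against 22.2%. In C-DE/C-C the counts were 27 below (17.8%), against 22.4%, and 38 above (25.0%), against 18.6%. The counts for EE-DE/EE-C were 29 below (19.1%), against 19.6% of all probes, and 23 above (15.1%), against 14.6%. For EE-C/C-C they were 38 below (25.0%), against 17.5%, and 30 above (19.7%), against 20.3%. Probes of a gene are not independent, the pools are shared between comparisons, and each group is 1 pool, so these shares describe the arrays. Markers of bulb neurons in EE-DE/C-DE had a median of -0.03, with 3 of 12 higher. In EE-C/C-C their median was 0.02 and in C-DE/C-C it was 0.03, with 9 of 12 higher in each. In EE-DE/C-C it was -0.03, with 5 of 12 higher, and in EE-DE/EE-C it was -0.03, with 4 of 12 higher. The part of these markers in the channel counts was not tested.

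**Figure D5:**
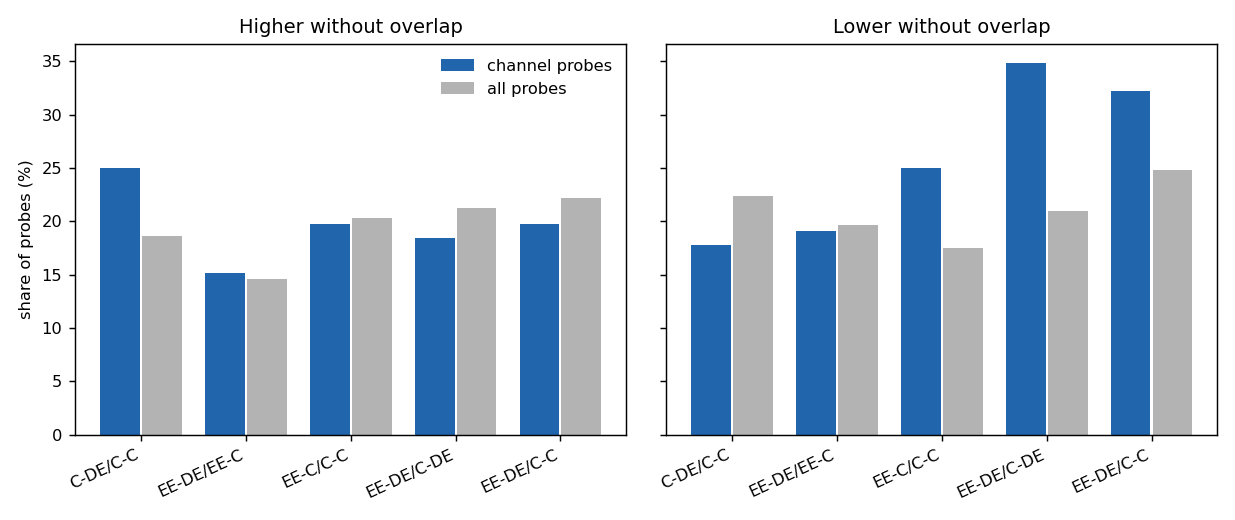
Share of the 152 channel probes (blue) and of all 21902 probes (grey) for which both arrays of the first-named pool lay above (left) or below (right) both arrays of the second. Lower channel probes exceed the share of all probes in EE-DE/C-DE (34.9% against 21%), EE-DE/C-C (32.2% against 24.8%) and EE-C/C-C (25.0% against 17.5%), and higher ones do so in C-DE/C-C (25.0% against 18.6%).

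By family, the Kv alpha subunits had 18 of 48 probes below without overlap in EE-DE/C-DE and 11 above. The shares of all probes are again 21% below and 21.2% above. Counts below and above were 6 and 1 of 14 for calcium channel alpha-1 subunits, 4 and 1 of 5 for calcium channel beta subunits and 3 and 0 of 7 for gamma subunits and TARPs. They were 5 and 3 of 15 for Kir, 3 and 1 of 12 for K2P, 5 and 3 of 12 for Kv auxiliary subunits and 4 and 3 of 11 for calcium- and sodium-activated channels. Below and above were equal for sodium channel alpha subunits (2 and 2 of 16), sodium channel beta subunits (1 and 1 of 4) and alpha-2/delta subunits (2 and 2 of 6), and Kcnq1ot1 had 0 of 2 either way. The lowest family medians in this comparison were -0.11 for gamma subunits and TARPs and -0.10 for calcium channel beta subunits.

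A group with no array above background gives only a bound. Kcnh6, a channel of the erg family, was well above background with one probe on both C-C arrays and on neither EE-C array, and C-C was at least 1.76-fold higher. Its other probe, above background on 7 arrays, read -4.30 and -3.91 in C-C and -4.08 and -4.38 in EE-C, which overlap. By the same rule Kcnmb1, a beta subunit of smooth muscle, was at least 1.36-fold higher in C-DE than in C-C, and Kcna10 at least 1.26-fold higher in EE-C than in C-C. The probes of Kcnmb1 and Kcna10 were above background on only 2 arrays each and spanned 1.99 and 2.48 over the 8 arrays. The bounds rest on means of 2 arrays and make no allowance for error between arrays. A further probe of Kcnh8 was above background on both arrays of some pools and on neither EE-DE array, which allowed no bound above 1-fold.

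Genes that work with these channels were read as a list of 38, among them the HCN pacemaker channels, the sulfonylurea receptors, the FGF homologous factors and ankyrin and spectrin scaffolds. Of these, 34 passed, and none was past 1.5-fold in either comparison of exposure. Abcc9, the receptor subunit that pairs with Kcnj8 in vessels, was lower in EE-C/C-C by -0.71 (-1.40 to -0.03). It read -1.99 and -2.10 in C-C and -3.39 and -2.13 in EE-C, and the first EE-C array alone was low. Lrrc55, a gamma subunit of Kcnma1 channels, read 2.20 and 2.27 in C-C and 1.69 and 1.83 in C-DE, a difference of -0.48 (-0.58 to -0.37), short of 1.5-fold. It read 1.68 on both EE-C arrays, a difference of -0.56 (-0.59 to -0.52) in EE-C/C-C, and both C-C arrays were the highest of all. Hcn2, a pacemaker channel, was 0.31 (0.27 to 0.35) higher in C-DE than in C-C. Its EE-C/C-C value was 0.23 (0.12 to 0.34), and here both C-C arrays were the lowest.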

How the data were processed

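Scanner intensity was deposited for each array as written by Agilent Feature Extraction 10.7.3.1 (the version in the submitters' processing notes), which subtracts local background and detrends each array per the file headers but does not scale arrays to each other. A table of log2 values prepared by the authors was also deposited. Its values served as an alternative. After each probe's median over the 8 arrays was subtracted from both, they lay within 0.02 of the values used here for 99.4% of 21902 probes. Here, log2 processed signals were scaled to the 75th percentile of the 59305 noncontrol spots of each array, spots of a probe were averaged, and probes were kept as described above. Each group is 1 pool of RNA on 2 arrays, so no test was made and the number of arrays limits the precision. All 8 arrays were assigned from their labels.

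Channel genes were chosen by symbol. Named are those past 1.5-fold, those past it in all 4 pairings, a list of textbook channels whatever their values, genes above background on both arrays of one pool and neither of another, and partner genes past 1.5-fold. Each gene with a passing probe is shown by the passing probe of highest mean signal. The values of some of these genes are not reported here. Genes shown for a wide span, for probes that disagree or for the largest value of a family were picked after their values were seen. The members, lists and rules were chosen with earlier results of these data known. A bound takes the brighter pool's mean against, per array, the higher of the dim probe's own signal and the lowest signal among probes well above background.

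Of 190 channel probes with a RefSeq accession, 185 matched a later RefSeq table (GRCm38), and the symbol was equal for 182. Coordinates are the files' own, on mm9. Alternatives were normexp correction (offset 50), quantile normalization, the median as scale, the series table, looser filters, the removal of a slide corner, calls in all 4 pairings and leaving out each array. Computations were made in R 4.3.3 (limma 3.58.1) and Python 3.11.15 (numpy 2.4.6, pandas 2.3.3, matplotlib 3.10.9).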

Additional observations from a re-analysis of the deposited data

Results flagged for a closer look

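For 13 channel probes, both exposed arrays lay on one side of both unexposed arrays in standard cages and on the opposite side in enriched cages. These differences between rearing conditions were not tested. Of the 152 channel probes, 9 (5.92%) were higher with exposure in standard cages and lower in enriched cages, against 2.14% of all probes, and 4 (2.63%) showed the reverse, against 2.17%. The difference, given as the EE-DE/EE-C value minus the C-DE/C-C value on the log2 scale, was 0.23 for Cacna1a and 0.14 for Cacna1d, pores of P/Q-type and L-type calcium channels, 0.31 for Cacna2d4 and 0.38 for Cacnb2. It was negative for the other 9, of which 8 are named, with -0.5 for a dim probe of Cacna1h and -0.39 for a dim probe of Cacna1i. The probes of highest signal of these T-type channels did not show it, nor did the second passing probes of Cacna1a, Cacna1d, Cacnb2 and Scn1a, and that of Cacnb2 ran the other way (0.04 with exposure in standard cages, -0.10 in enriched cages). Among the rest it was -0.36 for Cacng8, -0.21 for Kcnk6, -0.12 for Kcnj9, -0.2 for Kcns2, -0.14 for a probe of Scn1a and -0.21 for Kcnn4. None of the 13 probes passed 1.5-fold in either comparison.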

How the results depend on the processing

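No paired analysis was possible because each group is 1 pool of RNA and no test was made. With normexp, which adds an offset and by construction shrinks the differences of dim probes, C-DE/C-C gave 1 channel probe past 1.5-fold and EE-DE/C-DE gave 0. Quantile normalization gave 2 in EE-DE/C-DE, with Kcnj5 beside Scn4b. Asking for 1.5-fold in all 4 pairings left 1 in C-DE/C-C and 0 elsewhere. The looser filter on dim spots, which admits further dim probes, gave 2 in EE-DE/EE-C, 4 in EE-C/C-C, 3 in EE-DE/C-DE and 2 in EE-DE/C-C. Leaving out each array gave 1 to 4 probes for C-DE/C-C and 0 to 2 for EE-DE/EE-C. It gave 1 to 3 for EE-C/C-C, 1 to 2 for EE-DE/C-DE and 1 to 3 for EE-DE/C-C. The shares of all probes past 1.5-fold under these settings are not given here, so the counts show only how far they move.

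The median of channel probes in C-DE/C-C was 0.0204 with quantile normalization and 0.0207 with the series table, that in EE-DE/EE-C was -0.0050 with the median as scale, and that in EE-DE/C-DE was -0.0413 with the looser filter. Leaving out each array moved it from 0.0078 to 0.0216 for C-DE/C-C, from -0.0068 to 0.0114 for EE-DE/EE-C and from -0.0247 to 0.0039 for EE-DE/C-C. Without the first C-C array, the dim probe of Scn3a (Scn3a A_51_P398037 C-DE/C-C and Scn3a A_51_P398037 EE-DE/C-C) turned to 0.0214 and 0.0198, the other end of the range being -2.3183 and -2.3199 without the second C-C array. The counts of probes without overlap were recomputed under settings chosen after seeing the data, 8 for each count. In EE-DE/C-DE they gave 53 to 58 below and 26 to 38 above, and in EE-DE/C-C 44 to 53 below and 30 to 41 above. For C-DE/C-C they gave 21 to 31 below and 37 to 46 above, for EE-DE/EE-C 24 to 36 below and 19 to 30 above, and for EE-C/C-C 31 to 42 below and 29 to 34 above. Some settings change the number of channel probes tested, and the shares of all probes under these settings are not given here. Whether the excesses over all probes hold there is therefore not shown. Where not stated otherwise, the cause of a move was not tested.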
